A study of Drosophila melanogaster with 3 samples.

Results

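The genes described here are 10 transcription factor genes of the Drosophila ecdysone cascade, EcR, usp, Eip75B, Eip78C, Hr3, Hr4, Hr39, ftz-f1, br and Eip93F, out of 18164 annotated genes. They were chosen by name, and a ChIP-seq region was given to a gene when its summit lay inside the gene or within 5 kb of it. ChIP-seq of Hey-GFP was done on whole embryos of both sexes, 6 to 24 h old, with 3 biological replicates and no second group. The line stably carries Hey with GFP at its C terminus, so all libraries measured the tagged protein in a whole-animal mixture of cell types, and the labels name no promoter for the transgene. The free-text label of each library calls it an input control, against its assay title and antibody. No untagged, mutant or hormone-treated group was analysed here. Each replicate has a list of 30000 regions, as has the pool, and the authors kept 3319 regions after filtering on the irreproducible discovery rate (IDR). These IDR regions were exactly the top 3319 of the pooled list by signal value, a number of unstated scale that serves here for ranks within each list. Read depth is unknown from the lists.

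Ecdysone, the steroid hormone of insect moulting, acts through a heterodimer of the nuclear receptors EcR and Usp. The bound receptor switches on early genes, among them Eip75B and br, and these with the early-late receptors Hr3 and Hr4 time the later expression of ftz-f1 and Eip93F. A pulse of the hormone also occurs in mid-embryogenesis. Hey is a basic helix-loop-helix factor related to Hairy and to the Enhancer of split proteins. Such factors bind CACGTG and the class C site CACGCG in vitro and mostly repress.

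Hey-GFP regions were most numerous at Eip75B, followed by Hr4 and EcR, and 4 of the 10 genes had none. Of the 23 IDR regions at the 10 genes, 11 lay at Eip75B, 5 at Hr4, 4 at EcR and 1 each at Hr3, ftz-f1 and br. No IDR region lay at usp, Eip78C, Hr39 or Eip93F. Thus 6 of 10 genes had a region, against 30.0% of all genes, 31.0% of protein-coding genes and 42.5% of genes at least as long as usp, the shortest member at 3.51 kb. The other 9 genes were 22.4 to 114 kb long, and 57.7% of protein-coding genes of 22426 bp or more had a region, a background added after the data were seen. All 6 genes with a region were among these 9, and the 57.7% was taken over a set that includes them. Their share was therefore near that of long genes in general. All 8 regions with a CACGTG or CACGCG core within 100 bp of the summit were at Eip75B.

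**Figure D1:**
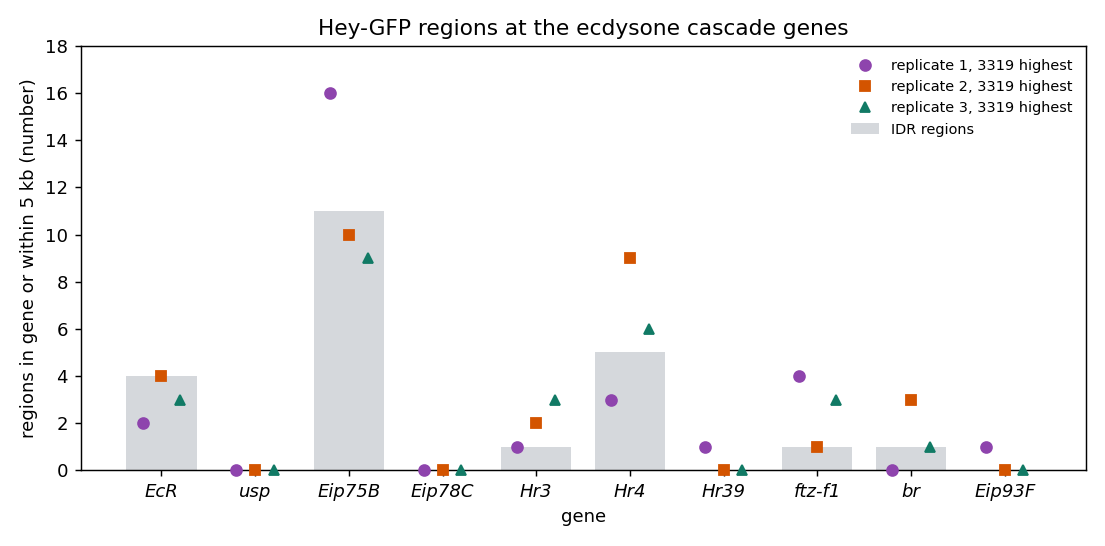
Number of regions with a summit in each gene or within 5 kb of it (vertical axis) for the 10 genes (horizontal axis), with IDR regions as grey bars and the 3319 highest regions of each replicate as points. Eip75B had 11 IDR regions and 16, 10 and 9 regions in replicates 1, 2 and 3, in each list the highest of the 10 genes.

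The regions of Eip75B that hold the cores are shown first, because they carry all the CACGTG and CACGCG cores found within 100 bp of IDR summits of the cascade. Sequences are of the plus strand of dm6, with CACGTG in capitals and 30 bases to either side. Eip75B is on the minus strand (FBgn0000568, 3L:17950953-18064696). The lines give the summit position on 3L.
Eip75B summit 17992812: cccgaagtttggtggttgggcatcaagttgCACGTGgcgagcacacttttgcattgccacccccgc
Eip75B summit 18003162: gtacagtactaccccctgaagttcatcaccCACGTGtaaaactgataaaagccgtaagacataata
Eip75B summit 17987425: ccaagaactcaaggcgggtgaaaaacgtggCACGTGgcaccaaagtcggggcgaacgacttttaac
Eip75B summit 17994801: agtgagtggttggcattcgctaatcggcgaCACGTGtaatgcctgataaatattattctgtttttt

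The class C sites at IDR summits lay in a separate cluster past the 3' end of the gene. Capitals mark CACGCG or, where the site is on the minus strand, CGCGTG. In the second sequence the 3 sites include a pair on opposite strands that overlap.
Eip75B summit 17950496: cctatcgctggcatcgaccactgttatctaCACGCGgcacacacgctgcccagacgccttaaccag
Eip75B summit 17949297: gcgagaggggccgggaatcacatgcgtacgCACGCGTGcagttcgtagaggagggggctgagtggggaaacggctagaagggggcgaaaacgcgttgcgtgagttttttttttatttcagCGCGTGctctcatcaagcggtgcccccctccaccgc
Eip75B summit 17946559: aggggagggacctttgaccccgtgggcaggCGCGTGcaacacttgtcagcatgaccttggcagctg
Eip75B summit 17948402: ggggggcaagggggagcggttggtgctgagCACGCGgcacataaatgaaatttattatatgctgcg

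Eip75B encodes a haem-binding nuclear receptor that is induced early by the hormone and can repress the action of Hr3. Its 7 annotated transcripts start at 7 separate sites, which give isoforms with different N termini. The 11 IDR regions fell into 7 inside the gene, over 42361 bp around the start of transcript Eip75B-RC, and 4 past the 3' end, over 3937 bp. All 4 regions with CACGTG were in the inner group, and all 4 with CACGCG were in the group past the 3' end. This split is limited to IDR regions. Below the IDR threshold, pooled regions in introns of the gene at ranks 3895, 4032 and 4204 also held CACGCG within 100 bp. In the window of 123.7 kb the density was 8.89 regions per 100 kb, against 2.48 over the 6 chromosome arms. It was 6.58 at Hr4 and 4.39 at EcR, also above that of the arms. At Hr3, ftz-f1 and br it was 2.31, 1.65 and 1 per 100 kb, so that the other 9 windows together had 2.21. Of 13945 protein-coding genes, 9 including Eip75B had 11 or more regions by the same rule, and the highest count was 22, at jing. Among the 904 long protein-coding genes the median count was 1.0, and 56, Eip75B included, had a density as high as that of Eip75B or higher.

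The strongest region of the cascade lay at 3L:17992611-17992991, 7009 bp downstream of the Eip75B-RC start and within an intron. It ranked 79 in the IDR list with a signal value of 717. The best-ranked summit within 100 bp stood at 175, 64 and 66 in replicates 1, 2 and 3. Its CACGTG core occupied 3L:17992814-17992819, at the summit itself. The next, at 3L:18003008-18003330 and 3341 bp upstream of the same start, ranked 166 with a signal value of 549, and ranked 184, 217 and 164 in the replicates. These were high in all 3 replicates. The region at 3L:17987369-17987489 ranked 888 (signal 248) and stood at 1250, 714 and 1250. Its nearest start site, 5584 bp away, was that of the non-coding gene lncRNA:CR45921. The last region with CACGTG, at 3L:17994760-17994894, ranked 2348 (signal 142), stood at 1199 in replicate 1 and 1742 in replicate 3, and had no summit within 100 bp in replicate 2. The position of the core varied, and in the regions with summits at 18003162 and 17994801 it was more than 60 bp from the summit.

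Inside the gene, 3 further IDR regions had neither core. The region at 3L:18029671-18029890, 3754 bp upstream of the start of Eip75B-RG, ranked 390 with a signal value of 369 and stood at 330, 514 and 695 in replicates 1, 2 and 3. The region at 3L:18019730-18019902, 6197 bp downstream of that start, ranked 1143 (signal 213) and stood at 2476, 912 and 1517. The remaining region, at 3L:17999616-18000019, had its summit 3 bp from the Eip75B-RC start and was in all the cascade the only IDR region within 1000 bp of a start site of its own gene. It ranked 1065 (signal 222), with ranks of 3481, 1001 and 490, so it was high in replicates 2 and 3 and just below the 3319 highest in replicate 1.

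The cluster past the 3' end began 457 bp from the end of Eip75B and reached 4394 bp from it. Its nearest start site belonged to a non-coding gene, lncRNA:CR45393 (3L:17947192-17947700), at 702 to 2796 bp from the 4 summits, so the gene to which the cluster belongs is not given by position. Neighbouring summits were 895 to 1843 bp apart. The region at 3L:17950377-17950600 ranked 582 (signal 305) and stood at 566, 793 and 1272 in replicates 1, 2 and 3. The region at 3L:17949151-17949414 ranked 727 (signal 275) and stood at 517, 723 and 4445. The regions at 3L:17946466-17946569 (rank 1642) and 3L:17948200-17948603 (rank 3143) stood at 1824 and 1636 in replicate 1. In replicate 3 they stood at 4327 and at no rank within 100 bp. Replicate 3 thus ranked every region of the cluster lower than replicate 1 did.

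**Figure D2:**
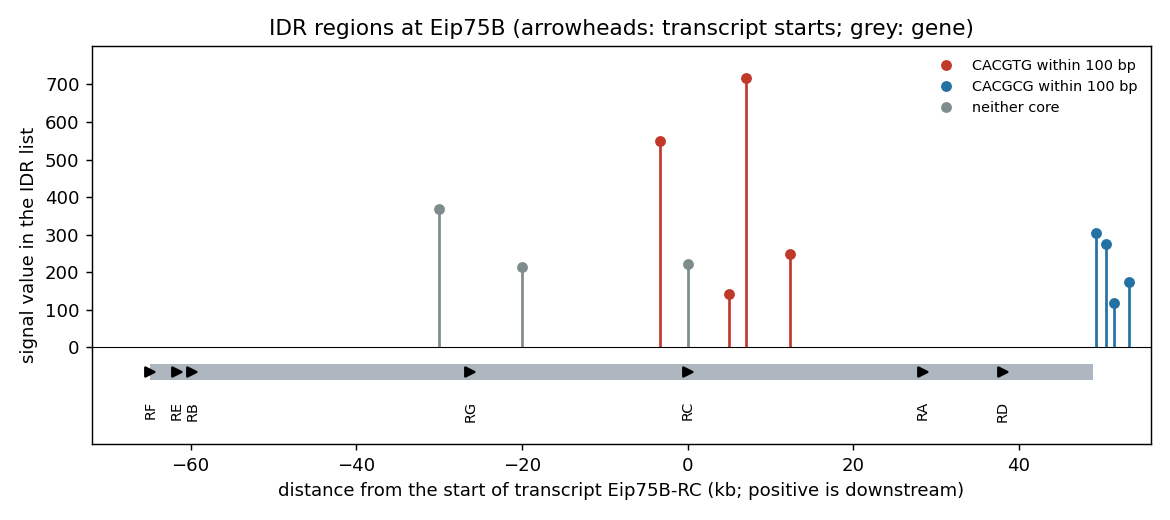
Signal value in the IDR list (vertical axis) of the 11 regions at Eip75B by distance of the summit from the start of transcript Eip75B-RC in kb, in the direction of transcription (horizontal axis). Colours mark a core within 100 bp of the summit, arrowheads mark transcript starts and the grey bar is the gene; the 4 regions with CACGTG lie around the Eip75B-RC start and the 4 with CACGCG past the 3' end.

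Most cores in these windows had no region. The Eip75B window held 21 CACGTG cores, of which 4 had an IDR summit within 100 bp, and 34 CACGCG cores, counted by position on either strand, of which 6 did. Over the 6 arms, 3.88% of CACGTG cores and 2.12% of CACGCG cores had an IDR summit that near. The windows of the other 9 genes held 40 CACGTG and 102 CACGCG cores, and none had one. Of these, 6 CACGTG and 10 CACGCG cores had a summit of the full pooled list within 100 bp, against 13.5% and 10.3% of such cores over the arms. Hr4 and EcR, with 7 and 6 CACGTG cores, thus had IDR regions but no core within 100 bp of an IDR summit. The replicate 2 summit of the EcR region at 2R:6149762-6150165 lay 31 bp from the IDR summit and did hold a CACGCG within 100 bp.

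EcR, the ecdysone receptor gene (FBgn0000546, 2R:6087873-6169087, minus strand), had 4 IDR regions, all in introns. The strongest, at 2R:6151339-6151452, ranked 402 (signal 365) and stood at 471, 296 and 1035 in replicates 1, 2 and 3. It lay in introns of the transcripts EcR-RA, EcR-RD and EcR-RE, 5779 bp downstream of the EcR-RD start and 1326 bp from the start of tRNA:Asn-GTT-1-1, a tRNA gene inside EcR. A weaker region 1386 bp from it, at 2R:6149762-6150165, ranked 2574, with 2897 and 2637 in replicates 1 and 2 and no summit within 100 bp in replicate 3. Replicate 3 did list a summit 304 bp from that of this weaker region, also at rank 2574. The other regions, at 2R:6120309-6120712 (rank 1746) and 2R:6115351-6115754 (rank 2611), lay in introns of all 6 transcripts, 11330 and 16288 bp downstream of the EcR-RG start. The first of these stood at 5182, 2595 and 1097 and the second at 4649, 2828 and 17535, so only replicate 2 had both among its 3319 highest. The gene's partner usp (FBgn0003964, X:2038798-2042311), which codes for the RXR-like partner in the receptor, had no IDR region. Its highest pooled region, at X:2041284-2041687 and 174 bp from the start of usp-RA, ranked 5335 of 30000 (signal 83.7), and stood at 11370, 26178 and 4351 in the replicates.

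Among the early-late receptors, Hr4 and Hr3 had intronic regions that all 3 replicates listed high. Hr3 encodes an orphan receptor that activates ftz-f1. Its sole IDR region, at 2R:10219922-10220221, ranked 291 (signal 422), the third highest of the 23, and stood at 651, 319 and 201 in replicates 1, 2 and 3. It lay 7925 bp downstream of a start site that Hr3 shares with the annotated gene CG46321, in an intron of all 6 Hr3 transcripts. Hr4, another orphan receptor of the cascade (FBgn0264562, X:1941940-2007956, plus strand), had 5 regions. That at X:1951806-1952017 ranked 702 (signal 279) and stood at 224, 2619 and 2189. That at X:1963840-1964047 ranked 764 (signal 270) and stood at 571, 526 and 7708, and that at X:1947647-1947835 ranked 971 (signal 235) and stood at 1495, 864 and 1040. These 3 were in introns, 5775 to 21992 bp downstream of the main Hr4 start, where 7 of its 9 transcripts begin. The replicates ordered them differently, with the first highest in replicate 1, the second in replicate 2 and the last in replicate 3. The start nearest to the first and second was that of the pseudogene CR46447, 2562 and 9452 bp away. The weaker regions at X:2005811-2006214 (rank 2402) and X:1939981-1940384 (rank 2675) stood at 22269 and 6616 in replicate 1 and were among the 3319 highest of replicates 2 and 3. The first lay in a 3' UTR, with the start of PIG-K the nearest at 3351 bp, and the second 124 bp from the start of the neighbouring gene CG3587.

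Eip78C, an early-late receptor related to vertebrate Rev-erb, had 3 start sites and no IDR region. Its highest pooled region, at 3L:21240204-21240607, lay 59 bp from the start of Eip78C-RB, ranked 7264 (signal 67.5) and held a CACGCG within 100 bp of its summit. It stood at 5372 and 5270 in replicates 1 and 3 and had no summit within 100 bp in replicate 2. Hr39, which binds the same sites as Ftz-F1, also had its highest pooled region at its start, 250 bp away at 2L:21237298-21237701 (rank 6251, signal 74.9). Replicate 1 alone had a region among its 3319 highest there, at rank 2750 and 49 bp from the start.

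ftz-f1, br and Eip93F had few regions. ftz-f1 encodes the competence factor Ftz-F1, which acts between hormone pulses, and its only IDR region, at 3L:18789578-18789981, ranked 2290 (signal 145). It lay in an intron of transcript ftz-f1-RB, and stood at 1426 and 3081 in replicates 1 and 2. Replicate 3 had a summit 118 bp away, at rank 3241. br encodes BTB zinc finger factors of the larval to pupal switch, from 16 annotated transcripts. Its only IDR region, at X:1595736-1596139, ranked 3101 (signal 120), lay in an intron of br-RN and br-RO, and had a summit within 100 bp in replicate 2 only, at rank 2176. Replicate 3 had a summit 137 bp from it at rank 1530. Eip93F (FBgn0264490, 3R:21949114-22014539), a regulator of late cell death and adult differentiation, was nearly empty. Its window of 75.43 kb held 5 of the 30000 pooled regions, the highest at rank 19000 (signal 33.8), although replicate 1 listed a region at rank 2484 beside the neighbouring gene Idh3b.

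**Figure D3:**
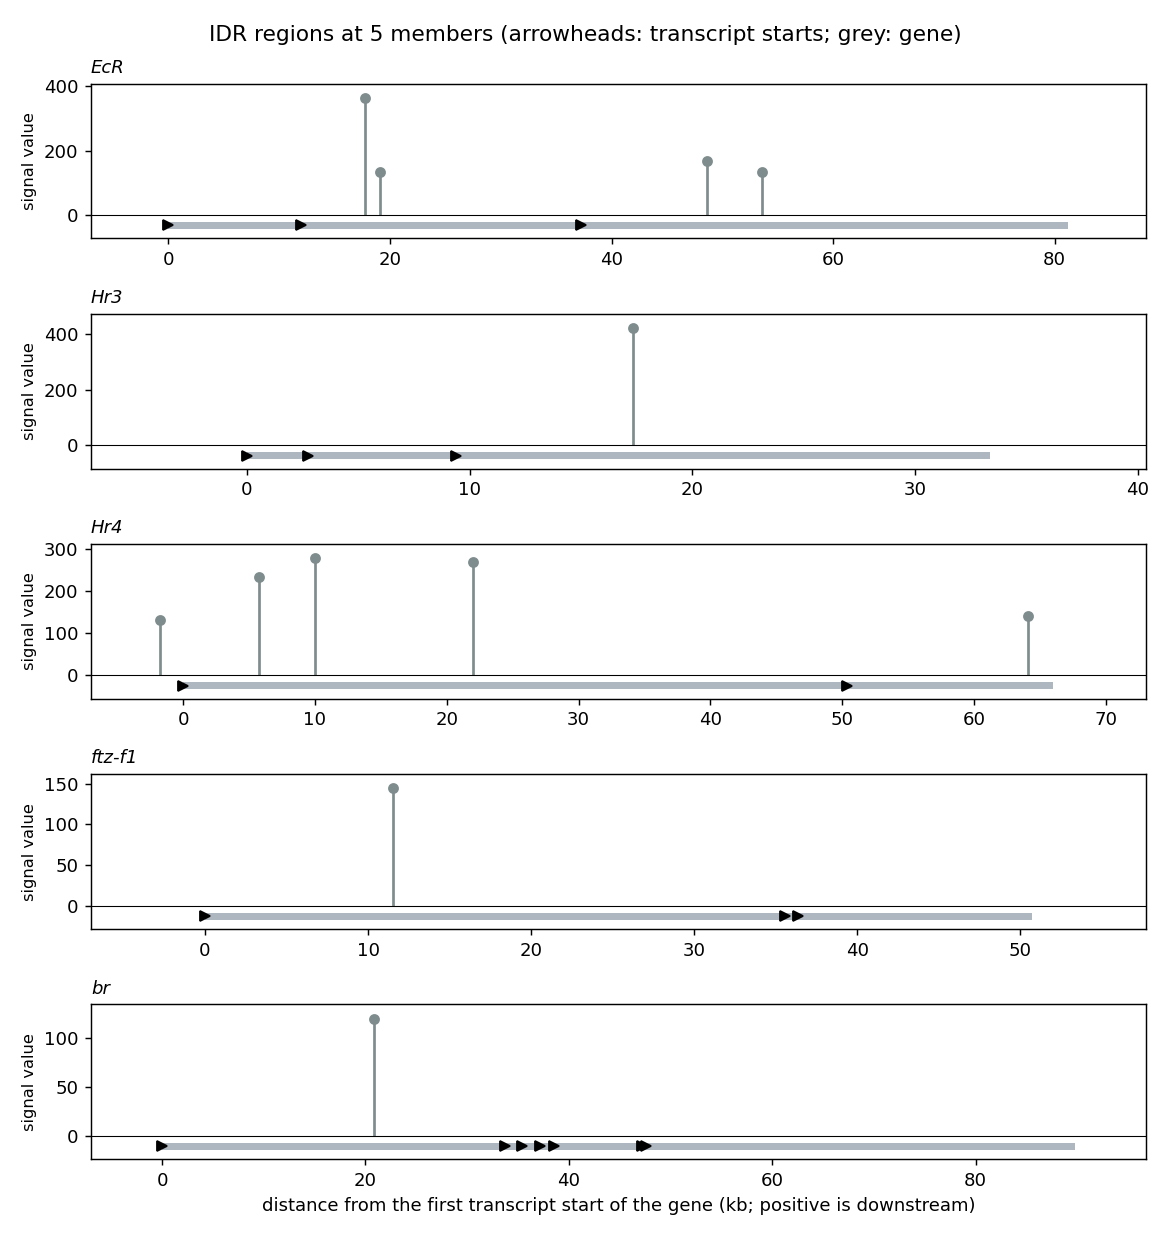
Signal value in the IDR list (vertical axes, each with its own scale) of the regions at EcR, Hr3, Hr4, ftz-f1 and br by distance from the first transcript start in kb, in the direction of transcription (horizontal axes). Arrowheads mark transcript starts and grey bars the genes; all 12 regions are grey because none had either core within 100 bp, and none is within 1000 bp of a start site of its own gene.

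Sequences at the strongest IDR summits of Hr4, ftz-f1 and br are given to set beside those of Eip75B, since no CACGTG or CACGCG lies within 100 bp of them. Each runs 60 bases to either side of the summit on the plus strand of dm6. Capitals mark a match to the N-box CACNAG, which among the sequences shown here only that of br holds, on the minus strand. Other regions of Hr4 held it too, among them that at X:1963840-1964047. Sequences of EcR and Hr3 are not shown.
Hr4 summit 1951918 on X: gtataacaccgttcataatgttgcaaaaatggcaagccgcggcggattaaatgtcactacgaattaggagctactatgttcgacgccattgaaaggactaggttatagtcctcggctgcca
ftz-f1 summit 18789780 on 3L: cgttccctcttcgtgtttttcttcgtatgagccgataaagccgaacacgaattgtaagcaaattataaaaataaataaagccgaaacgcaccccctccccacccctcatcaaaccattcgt
br summit 1595938 on X: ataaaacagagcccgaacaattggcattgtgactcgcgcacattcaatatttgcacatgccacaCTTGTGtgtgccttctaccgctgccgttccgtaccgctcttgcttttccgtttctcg

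Over all members, CACGTG was within 100 bp of 4 of 23 summits and CACGCG within 100 bp of 4, against 17.1% and 15.0% of all IDR regions. At least 1 of them was present at 8 of 23 (34.8%, 95% Wilson interval 18.8 to 55.1), against 29.9% of all IDR regions, 37.5% of those over 1000 bp from any start site and 32.8% of those at other long genes. The share over the members was thus near the background, and it was made of 8 of 11 at Eip75B and 0 of 12 elsewhere (upper limit of the Wilson interval 24.2%). This division was seen in the data and is given as a description. In flanking windows 400 to 600 bp from the summit on either side, each core occurred in 2.17%. The N-box CACNAG, searched on both strands, occurred at 10 of 23 summits, 3 at Eip75B and 7 elsewhere, against 26.8% of all IDR regions. In the flanking windows it occurred in 23.9% at the members and 21.8% over all IDR regions. AGGTCA, the core hexamer of nuclear receptor sites, occurred at 3 summits, all at Eip75B, against 3.56% of all IDR regions. It was in none of the members' flanks and in 4.88% of those of all IDR regions. The inverted repeat of GGTCA with a 1-base spacer and the extended hexamer TCAAGGTCA occurred at none, and at 1 and 2 of the 3319 IDR regions.

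Most regions of the cascade were far from start sites. Of the 23 summits, 18 lay inside the member gene, 16 were in introns (69.6%, Wilson interval 49.1 to 84.4, against 50.1% of all IDR summits) and 5 were intergenic. Only 3 were within 1000 bp of a start site of any gene (13.0%, 4.54 to 32.1), against 48.4% of all IDR summits and 37.6% of those at other long protein-coding genes. The median distance to the nearest start site was 3754 bp, against 1097 bp over all IDR regions and 2002 bp at the other long genes. Of the 33 promoters of the 10 genes, formed by joining start sites up to 300 bp apart, 1 had an IDR summit within 1000 bp, that of Eip75B-RC, whereas 10.4% of all promoters did. By gene this is 1 of 10, against 10.7% of all genes and 208 of the 904 long protein-coding genes. The nearest start site was the member's own for 12 of 23 regions.

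**Figure D4:**
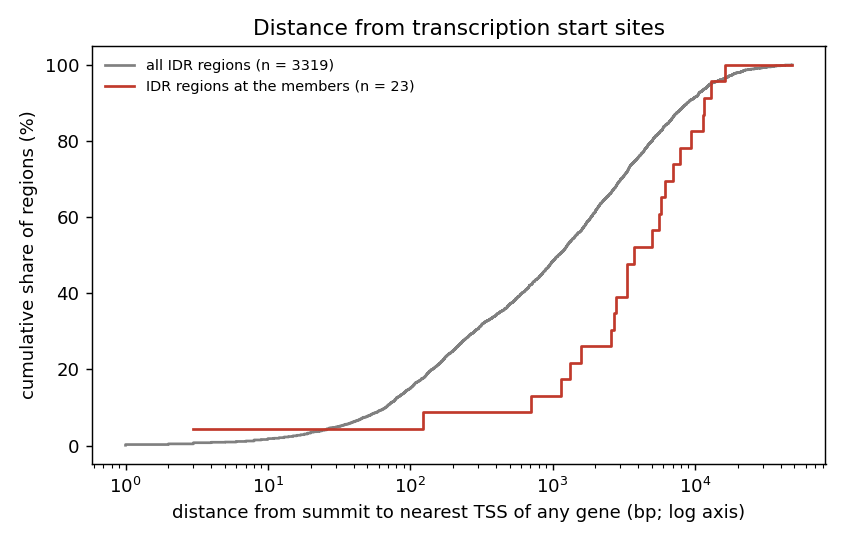
Cumulative share of regions in percent (vertical axis) by distance from the summit to the nearest transcription start site of any gene in bp on a log axis (horizontal axis). The 23 regions at the members (red) have a median of 3754 bp and all 3319 IDR regions (grey) a median of 1097 bp.

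Weaker regions did lie at several member promoters, just below the IDR threshold. The lowest IDR regions of the cascade ranked 3101 (br) and 3143 (Eip75B), and the next pooled regions ranked 3413 and 3484. The first of these, at 3L:18801231-18801634, lay 124 bp from the start of ftz-f1-RB with a signal value of 113, and stood at 4383, 8856 and 1831 in replicates 1, 2 and 3. The second, at 3L:17971093-17971496, lay 144 bp from the start of Eip75B-RA with a signal value of 112 and was listed within 100 bp in replicate 1 only, at rank 1701. An overlapping pooled region with its summit 65 bp from the same start ranked 4032 and stood at 13734, 4352 and 2426 in replicates 1, 2 and 3, so replicates 1 and 3 both had a summit at that promoter among their 3319 highest. Between ranks 3319 and 5000 the pooled list held 17 regions of the cascade, 9 of them at Eip75B, and 5 of the 17 had either core, against 20.5% of the 1681 pooled regions of those ranks. In the full pooled list, 17 of the 33 promoters had a summit within 1000 bp, against 40.7% of all promoters.

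Support differed between the regions and did not simply follow their rank. Of the 23 IDR regions, 10 had a summit within 100 bp among the 3319 highest of all 3 replicates (43.5%, Wilson interval 25.6 to 63.2, against 36.5% of all IDR regions). A further 10 had one in 2 replicates and 3 in 1. The 10 were 6 at Eip75B, 2 at Hr4 and 1 each at EcR and Hr3. They included the 7 strongest regions of the cascade, but the regions at ranks 727 (Eip75B) and 764 (Hr4) stood at 4445 and 7708 in replicate 3, while that at rank 1143 (Eip75B) had full support. Replicate 3 did list a summit 246 bp from that of the Hr4 region, at rank 2413. With a reciprocal overlap of 50% in place of the summit distance, 5 regions had support in all replicates.

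**Figure D5:**
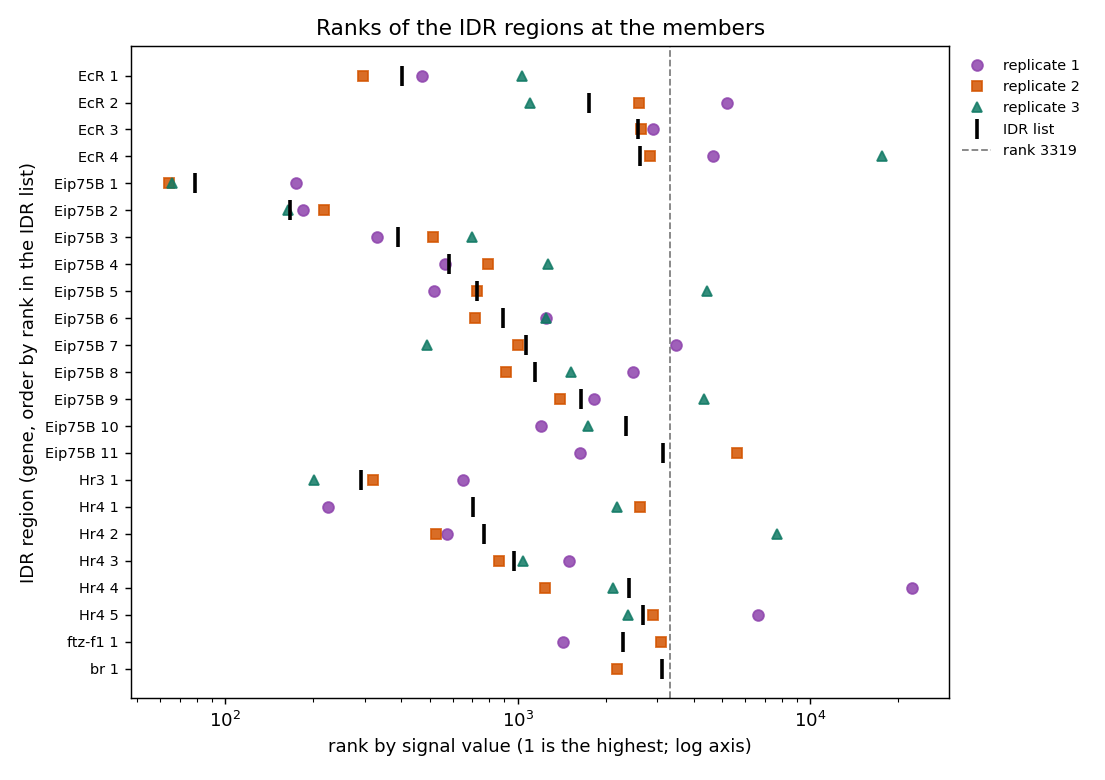
Rank by signal value on a log axis (horizontal axis) of the 23 IDR regions, grouped by gene and ordered by rank in the IDR list (vertical axis). Coloured points are the best-ranked summit within 100 bp in each replicate and black bars the IDR list; the 2 strongest Eip75B regions lie left of rank 220 in all replicates, and regions to the right of the dashed line at 3319 were not among the highest of that replicate.

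Among the 3319 highest regions, replicates 1, 2 and 3 listed 28, 29 and 25 summits at the 10 genes, and among their 3319 lowest 21, 14 and 15. Means ± SD were 27.3 ± 2.08 (n = 3) among the highest and 16.7 ± 3.79 among the lowest, and the highest held more in each of the 3 replicates (two-sided exact permutation test without pairing, p = 0.1, the smallest that 3 values against 3 can give). Both counts of a replicate came from the same list, so they are paired. With exact sign flips within replicates p was 0.25, the smallest they can give with n = 3. Without Eip75B, an alternative chosen after seeing the data, the means were 15.7 ± 3.51 and 11.7 ± 4.04 and the values overlapped (exact permutation p = 0.3, n = 3). The 10 genes held 0.844%, 0.874% and 0.753% of the highest regions of replicates 1, 2 and 3 and 0.723%, 0.780% and 0.827% of all their regions, so in replicate 3 the share among the highest was below that of the whole list. In replicate 1 the 9 other genes had 12 summits among the highest and 16 among the lowest. Eip75B had 16, 10 and 9 summits among the highest regions of replicates 1, 2 and 3, Hr4 had 3, 9 and 6, and EcR 2, 4 and 3. Replicate 1 was the highest of the 3 at Eip75B and the lowest at Hr4 and EcR.

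Other genes of the hormone pathway gave the context. Of 58 such genes in 4 lists, 24 had an IDR region in the gene or within 5 kb, against 30.0% of all genes. Among ecdysone-responsive genes it was 13 of 23. Eip63E, a cyclin-dependent kinase gene, had the strongest (rank 112, signal 624, with CACGTG), followed by Sox14, an HMG-box factor gene (rank 147, 570), Kr-h1, the zinc finger mediator of juvenile hormone (rank 151, 567, with both cores) and Eip71CD, the methionine sulfoxide reductase gene now called MsrA (rank 210, 496). The Eip71CD summit was intergenic and nearest to another gene, CG7841. For the strongest regions of Eip63E and Kr-h1, the nearest listed start was also that of another gene. Kr-h1 had 6 regions and the early gene Eip74EF, also on 3L, had 3, the highest at rank 2704 (signal 131, with both cores).

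Hormone synthesis and uptake genes had regions at 1 of 12, namely the ecdysone importer gene EcI (Oatp74D, rank 747, signal 273). Cofactor and juvenile hormone receptor genes had them at 4 of 10. These were CSN2, a signalosome subunit gene now called alien (rank 584, signal 305, at the start of another gene, rost), the juvenile hormone receptor gene gce (rank 837, signal 256), the EcR coactivator gene tai (rank 1340, signal 197) and the corepressor gene Smr (rank 1405, signal 192). Other nuclear receptor genes had them at 6 of 13. The strongest were Hnf4, a regulator of lipid metabolism (6 regions, the highest at rank 331, signal 399), dsf (rank 643, signal 293), Hr96 (rank 1095, signal 218, in its promoter) and ERR, a regulator of carbohydrate metabolism (rank 1431, signal 190). At none of these 4 receptor genes did the strongest region hold either core near its summit. For the strongest regions of EcI, gce, tai, Smr, dsf and ERR, the nearest listed start was that of another gene. An IDR summit lay within 1000 bp of an own start site at 4 of the 13 receptor genes, beside 1 of the 10 cascade genes and 10.7% of all genes. The lists were written with results of these data known and are given as counts, with no test. Their genes differ in length, and the share of all genes was not matched for it.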

How the data were processed

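ChIP-seq regions of 3 biological replicates of 1 group were used. Per the deposited file listings, the authors made each replicate list from its own alignment and a control, a pooled list from the 3 alignments and a control, and the IDR list from those lists. Per the labels, the assembly was dm6. Aligner, caller, IDR threshold and read depth were not given in the sources used here. Ranks within each list came from the deposited signal value, whose scale is unstated. The deposited −log10 q-value was left out of the ranking because every IDR region shared its top value.

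Genes and start sites came from Ensembl release 115 (BDGP6.54), without transposable elements, and sequences from the RefSeq release 6 genome, which shares dm6 coordinates. All region ends lay within its arms. Coordinates are 1-based. Replicate support means that a replicate's 3319 highest regions include a summit at most 100 bp away. The single test was a two-sided exact permutation test over replicates (scipy 1.17.1). Wilson intervals are 95% and cover counting error over regions only. Regions of 1 gene are not independent, and nothing in the labels says that the replicates came from separate collections beyond the word biological. Computations were tested on simulated data. The members, lists and tests were chosen with earlier results of these data known. Named genes were all members, up to 4 genes per pathway list by signal, and genes whose start was nearest to a member summit. Eip74EF, Idh3b, CG7841, rost and 6 of the Eip75B sequences were added after values were seen, as was jing. Alternatives were the window, the overlap rule, the motif and promoter distances, the number of regions and leaving out replicates.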

Additional observations from a re-analysis of the deposited data

How the results depend on the processing

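The number of member genes with an IDR region (6) was 4 to 8 under every planned window, list and support rule. With support required in all 3 replicates it was 4. With replicates 1, 2 or 3 left out and support required in both others, it was 4, 4 and 5. The 23 IDR regions became 12 when the nearest start site had to be the member's own, 14 above the median rank of the IDR list and 12 without Eip75B. Support in all replicates, 10 of 23, became 5 with a reciprocal overlap of 50%, 4 with the 1000 highest regions, 16 with the 10000 highest and 18 with all deposited regions. It was 11 to 15 when 1 replicate was left out. Regions with CACGTG or CACGCG numbered 6 within 50 bp and 9 within 200 bp of the summit, and 0 without Eip75B (1 of 12 within 200 bp). Genes with a region near an own start site were 1 within 500 bp and 2 within 5000 bp. The promoter count was 1 under each distance and joining rule. The difference between highest and lowest regions, 10.7 summits, had p = 0.25 with a replicate block (exact sign flips within replicates, the smallest they can give with n = 3). It ranged from 4.67 to 27.3 summits with the 1000 and the 10000 highest and lowest, from 8 to 11 over windows and from 8.5 to 12.5 when 1 replicate was left out, and it was 4 without Eip75B (exact permutation p = 0.3). The exact permutation p was 0.3 with the 1000 highest and lowest and 0.1 with the 10000. With 2 replicates no p below 0.333 was obtained, so those values say nothing on stability. Read depth is unknown, so the absence of a region at usp, Eip78C, Hr39 or Eip93F shows only that none passed the threshold.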

Other observations

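Some summits at the cascade genes were high in a replicate with no IDR summit close by. Of the 28, 29 and 25 summits at the members among the 3319 highest of replicates 1, 2 and 3, 11, 8 and 10 had no IDR summit within 100 bp (39.3%, 27.6% and 40.0%). Over all 3319 highest regions these shares were 33.7%, 27.4% and 31.6%. Leaving out summits that lay inside an IDR region, the members' counts were 11, 7 and 8 (39.3%, 24.1% and 32.0%). Over all 3319 highest regions the shares by this rule were 31.4%, 23.7% and 27.0%. In replicate 1, 6 of the 11 were at Eip75B, which held 16 of the 28 summits. The highest of these 6 was in an intron at 3L position 17995386 (rank 910). Others were 146 bp from the start of Eip75B-RA (rank 1701) and 37 bp from the start of Eip75B-RD (rank 2226), and none of these 3 had a summit within 100 bp in replicates 2 and 3. Replicates 2 and 3 did have summits 66 and 29 bp from the Eip75B-RA start, at ranks 4352 and 2426. In replicate 3, summits in Hr3 introns ranked 1252 and 1547, and that at rank 1252 held a CACGTG within 100 bp and stood at 12266 in replicate 1 and 3338 in replicate 2. In replicate 1, a summit in a ftz-f1 intron at rank 1025 also held a CACGTG, stood at 6189 in replicate 3 and had no summit within 100 bp in replicate 2. Summits 1835 and 1978 bp downstream of the main Hr4 start ranked 3186 in replicate 2 and 2126 in replicate 3, and replicate 1 had none within 100 bp. In replicate 2, a summit in a br coding exon at rank 2391 held 2 CACGCG matches and stood at 28234 in replicate 1 and 3827 in replicate 3.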
